A study of Oryza sativa with 14 samples.

Results

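The 101 probe sets described here had levels in a gamma-irradiated rice line that lay outside the range of all other rice of the study. A probe set is the group of short array probes that together report 1 transcript. They were chosen on the measured levels themselves. Both arrays of the irradiated line had to lie at least 1 log2 unit (2-fold) above the highest, or at least 1 below the lowest, of the other 12 arrays. Of 57194 probe sets tested, 66 met the rule as higher and 35 as lower, 0.177% in all. Since the rule used these levels, the distance between the irradiated line and the other groups is given as a description with no test.

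Transcript levels came from 7 groups of Oryza sativa ssp. japonica seedlings, with 2 arrays per group and 1 pool of 6 whole seedlings per array. The irradiated line, labelled as an unstable mutant, was cv. Nipponbare in the M1 generation after 100 Gy. It was picked by the submitters as the line most like its unirradiated control in appearance. The other 12 arrays held the Nipponbare control, an unstable transgenic Nipponbare line, cv. Bengal with a stable transgenic line, and cv. Estrela A with a stable mutant. The unstable transgenic line was in generation T1 after Agrobacterium transformation, with 1 copy of BCBF1 under the Arabidopsis AtRD29A promoter and 1 copy of hpt II. The stable transgenic line (T3) expressed the antibody fragment ScFvT84.66 against carcinoembryonic antigen. The stable mutant also came from gamma irradiation and had passed over 10 generations of selfing. All seedlings were frozen at an age of 12 days, of which the first 2 were dark and the next 10 had 12 h photoperiods, at 28 °C. Both transgenic lines germinated on 30 mg/L hygromycin B, which the mutants and controls did not receive. The unstable mutant and the unstable transgenic line share the Nipponbare control and, per the labels, seed of the same panicle. Each modified line is 1 line, so the spread between its arrays is that between seedling pools.

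The M1 generation is the plant grown straight from an irradiated seed. Gamma rays break DNA in the embryo, so lesions differ from cell to cell, most of them are heterozygous, and they include small changes as well as losses or rearrangements of longer stretches. The values below are transcript levels, and no DNA was measured.

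Arrays of the same group correlated with r of 0.993 to 0.997 over probe sets, which are no independent replicates, and array medians lay between 5.83 and 5.89. Against the Nipponbare control, 22.9% of all probe sets were called in the unstable mutant by limma (adjusted p under 0.05), 12.7% higher and 10.2% lower. The rule used that contrast, so nothing is read from all 101 of its probe sets being among them. Markers of shoot, root and grain remnants served to check the tissue, and 4 of 5, 4 of 6 and 3 of 8 of them lay above the median of all values, 5.86, in all 7 groups. The 5 shoot genes summed to 15.51 to 15.56 log2 in the unstable mutant against 15.26 to 15.59 in the other 12 arrays. The 6 root genes summed to 13.33 to 13.40, against 14.48 to 14.54 in the Nipponbare control and 13.27 to 14.54 over all 12 other arrays, and limma called 5 of them lower than in that control. The 8 genes of grain remnants summed to 10.75 to 11.69 against 10.04 to 10.43 in the control and 10.04 to 13.44 over the 12. None of these markers was among the 101, and the part of tissue make-up in the levels was not tested. In whole seedlings, fewer cells of a type and less RNA per cell cannot be told apart.

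Applied to each group in turn, the same rule set apart 101 probe sets in the unstable mutant, 32 in the Nipponbare control and 196 in its transgenic derivative. It set apart 14 in the stable transgenic line, 13 in the stable mutant and 6 in each of the Bengal and Estrela A controls. Each of these groups had its own control or derived line among the reference arrays. With control and derived line joined as 4 arrays, the rule set apart 247 in Bengal and 403 in Estrela A. The Nipponbare control joined with the unstable transgenic line gave 308. The direction was uneven in the unstable transgenic line (186 higher, 10 lower) and less so in the unstable mutant (66 and 35). Many more probe sets separated the unstable mutant from its own control alone. At least 1 log2 beyond both Nipponbare control arrays lay 1800 probe sets, 942 higher and 858 lower, of which the 101 are 5.61%. For 821 of the 1800 (45.6%), the unstable mutant's mean fell within the range of the 8 Bengal and Estrela A arrays. By the rule, none of the 101 is among these 821.

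The gap, meaning the distance from the nearer unstable mutant array to the nearest of the 12 others, ran from 1.00 to 4.99 log2 units for the higher probe sets (median 1.36). It reached at least 2 in 19 of the 66 and at least 3 in 7. For the 35 lower probe sets it ran from 1.00 to 5.46 (median 1.17), with 4 at 2 or more and 1 at 3 or more. In 23 of the higher probe sets all 12 other arrays lay below 5.86, the median of all levels on the arrays, and in 21 of those 23 the unstable mutant's mean lay above it. These are transcripts at the dim end of the array everywhere else and at a middling or high level in the irradiated line. In 8 of the 35 lower probe sets the unstable mutant's mean was below 5.86, and in the other 27 it remained above.

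The rule needed both unstable mutant arrays to lie beyond the others, which favours probe sets on which they agree. As a description only, the 2 arrays were close to each other compared with these gaps. Their difference had a median of 0.16 for the higher and 0.27 for the lower probe sets, and no probe set had a replicate difference larger than its gap. It exceeded 0.5 in 9 higher and 7 lower probe sets, and the largest values were 1.05 for LOC4340598 and 1.09 for LOC4331855. Just inside the threshold lay the higher probe sets LOC4333528 and Os.27098.2.A1_s_at (gap 1.00) and LOC4339759 (1.01), and just outside it Os.52655.2.S1_at and OsAffx.3504.1.S1_x_at (0.97) and LOC4333004 (0.96). On the lower side OsAffx.26017.1.S1_at and OsAffx.3056.1.S1_at (1.00) and LOC4349221 (1.01) were inside, and LOC4343813 (0.99), LOC4324334 (0.98) and a probe set of LOC4333329 (0.98) outside. Between 0.9 and 1 lay 15 higher and 12 lower probe sets, those just named included, so the threshold does not fall at a break in the values.

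Names were available for a minority of the 101. A gene of the RefSeq table (assembly ASM3414082v1) was found for 61 probe sets, 37 higher and 24 lower, which represent 34 and 23 genes, 57 in all. The remaining 40 have no gene in that table and are given by their probe set names. Among all probe sets tested, 39.2% were placed on 1 gene. An informative symbol was present for 2 of the higher genes, SWEET2B and U2AF35A, and for 5 of the lower ones, PCL1, SAPK9, BBD1, PRR1 and GER4. Genes known by a LOC number alone are given no role here. Probe sets with the prefix OsAffx made up 16.7% of the higher and 20% of the lower probe sets, against 44.6% of all tested. Probe sets that can match several transcripts (suffix _s_at or _x_at) made up 27.3% and 20%, against 17.4% of all.

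The largest gap among the higher probe sets belonged to LOC4326922 on chromosome 1. It read 8.92 and 8.89 in the unstable mutant, against 3.47, 3.73 and 3.90 as the lowest, median and highest of the other 12 arrays. The Nipponbare control arrays read 3.90 and 3.64, which puts the unstable mutant 5.14 log2 units, 35.1-fold, above their mean. The 12 other arrays spanned less than 0.5 log2 units, with no cultivar or line apart from the rest. The fold rests on dim signals whose distance from background was not tested. It belongs to this probe set alone, since the gene's other probe sets, both brighter, differed from the Nipponbare control by 1.30 and 1.08.

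LOC4350133 and LOC4350129, both on chromosome 11, came next. LOC4350133 read 8.46 and 8.56 in the unstable mutant and 3.24 to 3.91 elsewhere (median 3.48). LOC4350129 read 8.69 and 8.54, against 3.66 to 4.34 elsewhere (median 3.81). Both were near the dim end of the array in all 3 cultivars and in both transgenic lines, so their folds over the Nipponbare control, 32.8 and 28.3, rest on dim signals whose distance from background was not tested. LOC4350667, also on chromosome 11, read 8.52 and 8.60 against 4.53 to 4.87, and LOC4352866 on chromosome 12 read 7.64 and 7.42 against 3.39 to 3.86. These 5 probe sets have the largest gaps of the 66, and all of them come from genes that lie near another of the 57 genes, as described below.

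The lower probe set with the largest gap, 1 of 5 for LOC4352868 on chromosome 12, read 6.40 and 6.41 in the unstable mutant and 11.87 to 12.42 in the other 12 arrays (median 12.25). Its difference from the Nipponbare control, -5.73 log2 units or 53.1-fold, was a description of 1 probe set only. The gene's other 4 probe sets did not follow it. They read 14.97 against 14.65 to 14.78 elsewhere, 13.55 against 13.50 to 13.86, 4.98 against 4.51 to 5.25, and 12.21 against 12.62 to 13.18. The last of these, the only one below all 12 other arrays, belongs to the same array cluster as the probe set with the large gap. OsAffx.7285.1.S1_at, which has no gene in the table, read 4.36 and 4.31 against 7.26 to 8.11. LOC4333719 on chromosome 3 was low in both of its probe sets, at 7.40 and 7.21 against 9.57 to 10.71 in one and at 8.63 and 8.24 against 10.67 to 11.91 in the other. A larger difference from the Nipponbare control than any of these, -6.06, came from LOC4348069 on chromosome 10, a gene chosen for mention after its values were seen. It read 4.79 and 4.90 in the unstable mutant and 10.76 and 11.05 in the Nipponbare control, but its gap was 1.04 because the stable mutant (mean 6.10) and the Estrela A control (6.90) were low as well.

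Further probe sets with large gaps, mentioned after their values were seen, had no gene in the table. Os.53436.1.S1_at read 7.49 and 7.53 in the unstable mutant against 3.70 to 4.15 elsewhere. Os.20171.1.S1_at read 8.21 and 8.29 against 4.22 to 5.19, and the other Nipponbare arrays read 4.22 to 4.80 of these. Both lay below the median of all values in each of the 12 other arrays, as the chosen probe set of LOC4326922 did. Among placed genes outside the stretches, LOC4348336 on chromosome 10 had the largest gap, 2.72, at 9.76 and 9.51 against 5.14 to 6.79. On the same chromosome both probe sets of LOC9272159 met the rule, at 7.58 and 7.78 against 3.26 to 4.93 in the first and at 7.25 and 7.19 against 3.27 to 5.0 in the second. For LOC9272159 the nearest arrays were those of the Nipponbare control.

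The array nearest to the unstable mutant came from each of the 6 other groups. Ties counted for both groups, it was a Nipponbare control array for 20 of the 66 higher probe sets, an unstable transgenic array for 12, a stable mutant or Estrela A control array for 10 each, a Bengal control array for 9 and a stable transgenic array for 8. For the 35 lower probe sets it was an unstable transgenic array for 11, a Nipponbare control array for 7, a Bengal control or stable mutant array for 6 each, an Estrela A control array for 5 and a stable transgenic array for 1. The 12 other arrays spanned a median of 1.25 log2 units in the higher and 1.24 in the lower probe sets, with extremes of 0.29 and 5.59.

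Among the genes with a name, the lower ones include a pair of the plant circadian clock. The clock is a loop of transcription factors that repress each other in turn over the day. In Arabidopsis the morning factors LHY and CCA1 repress evening genes, among them TOC1, whose rice counterpart is PRR1, and LUX, whose rice counterpart is PCL1. PCL1 read 6.23 and 6.12 in the unstable mutant, against 8.11, 8.48 and 9.83 as the lowest, median and highest elsewhere. The Bengal control and stable transgenic line had the highest PCL1 levels (means 9.78 and 9.72), and the Nipponbare control arrays, at 8.39 and 8.23, the Estrela A arrays and the unstable transgenic line lay together below them. PRR1 read 9.36 and 8.90 against 10.49 to 10.99 elsewhere, a range of the 12 others that is narrow beside the gap of 1.13.

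Of 7 clock genes measured, a list drawn up after these values were seen and so given no test, PCL1 and PRR1 were the only ones set apart by the rule. LHY lay on the other side, at 12.37 ± 0.09 (SD, n = 2) in the unstable mutant against 10.05 ± 0.01 in the Nipponbare control. It was above all 12 other arrays but did not meet the rule, and the nearest group mean was the stable mutant's, 11.37. GI (12.12 ± 0.25 against 12.66 ± 0.01) and PRR37 (10.81 ± 0.05 against 11.25 ± 0.01) were lower than in the control, while PRR95 (12.33 against 12.42) and PRR73 (12.68 against 12.72) were close to it. The hour at which each pool was frozen is not given in the labels, and its part in these levels was not tested.

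SAPK9 is a kinase of the SnRK2 family, which signals osmotic stress and abscisic acid in rice. Its probe set read 7.20 and 6.30 in the unstable mutant, against 9.05, 9.36 and 10.01 as the lowest, median and highest elsewhere. The replicates differed by 0.90, less than the gap of 1.85. Of the 8 other SAPK genes measured, limma called SAPK1 higher in the unstable mutant than in the Nipponbare control (0.86 ± 0.11 SE, adjusted p = 0.000202). It called SAPK7 (-0.99 ± 0.12 SE, adjusted p = 0.000144) and SAPK10 (-0.40 ± 0.10 SE, adjusted p = 0.00949) lower. The remaining 5 were not called, with differences between -0.07 and 0.08. Called genes made up 37.5% of these 8, near the 38% of all genes called in this comparison (19.1% higher, 18.9% lower), so the count is no result about the family.

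SWEET2B belongs to the SWEET family of sugar transporters, which let sugars pass across membranes along their gradient. Its probe set read 8.85 and 9.17 in the unstable mutant, against 6.32, 7.26 and 7.60 elsewhere. The Nipponbare control arrays read 6.79 and 7.23, so the difference was 2.00 log2 units or 4.0-fold. A second SWEET2B probe set gave 1.77 and lay above all 12 arrays without reaching the gap. Of the 10 other SWEET genes measured, limma called 4 higher than in the Nipponbare control and none lower. That is 40%, against 38% of all genes called and 19.1% called higher. The family was chosen after its values were seen, so nothing is read from the count of 4. The largest of these 4 was SWEET14 (1.68 ± 0.27 SE, adjusted p = 0.000864), and the others were SWEET16 (0.96), SWEET1B (0.68) and SWEET4 (0.56). The 6 not called differed by between -0.18 and 1.44.

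BBD1, named for a bifunctional nuclease of basal defence, read 8.47 and 8.17 in the unstable mutant, against 10.21, 11.67 and 11.99 elsewhere. Its lowest values among the 12 came from the unstable transgenic line, at 10.21 and 10.59. GER4, named for a germin-like protein of the cell wall space, read 10.18 and 10.31 against 11.37 to 12.76. All 4 other Nipponbare arrays (12.40 and 12.57 in the control, 12.76 and 12.47 in the unstable transgenic line) were above the 8 others, so its difference from its own cultivar, -2.24, was larger than the gap of 1.06. U2AF35A, a small subunit of the factor that recognises the 3' splice site, read 10.88 and 10.97 against 9.15 to 9.83.

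The informative names gave few of the 57 genes to any function. Of 21 lists of rice genes, 18 held none of them, including DNA repair and damage signalling (29 genes measured), cell cycle and replication (59) and heat shock and chaperones (55). The exceptions were 1 gene each: SWEET2B among 121 nutrient transporters, U2AF35A among 249 genes of transcription factor families (through a zinc finger synonym) and SAPK9 among 138 kinases and phosphatases. Per gene, limma called 38% of 17905 genes between the unstable mutant and the Nipponbare control, 19.1% higher and 18.9% lower, with a median difference of 0. Within the DNA repair list it called 5 genes higher and 8 lower (44.8% of 29, median -0.07), within the heat shock list 10 higher and 8 lower (32.7% of 55, median 0.06), and within the cell cycle list 8 higher and 24 lower (54.2% of 59, median -0.14). The 57 genes are 0.318% of all genes measured, a share at which lists of this size would hold fewer than 1, so nothing is read from their absence there.

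The 57 genes fell on all 12 chromosomes, unevenly. Chromosome 11 held 8 of them (7 higher, 1 lower), 14% of the 57 against 4.73% of all genes measured, and chromosome 12 held 8 (5 higher, 3 lower), against 5.07%. Per 1000 genes measured that is 9.46 on chromosome 11 and 8.81 on chromosome 12. Chromosome 10 followed with 6.67, chromosome 7 with 4.37 and chromosome 1 with 4.15, where 11 genes lie. Chromosomes 4 and 9 held 1 gene each, 0.637 and 1.04 per 1000. Direction differed too. All 3 genes on chromosome 8 and both on chromosome 5 were higher, and all 3 on chromosome 2 were lower. Only a share of the 101 probe sets is placed, and these counts are descriptions with no test.

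Several of the genes were neighbours. With genes counted in their order along the chromosome, 17 of the 57 lay in 6 stretches whose members are at most 20 gene places apart, a window chosen after the values were seen. The 5 placed probe sets with the largest gaps, LOC4352868 included, were all in these stretches, as were 7 of the first 10 and 10 of the first 15. The 19 probe sets in stretches had a median gap of 1.90 and a largest of 5.46, against 1.23 and 2.72 for the 42 placed probe sets outside them. The rule chose on the gap, and how often measured genes lie this close was not computed. These counts and gaps are therefore descriptions with no test. For reference, 8.85% of all placed probe sets differed from the Nipponbare control by at least 1 log2 unit.

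On chromosome 11, LOC4350122, LOC4350125, LOC4350129 and LOC4350133 occupy 11 consecutive gene places, and they are the only 4 genes measured there. All were higher in the unstable mutant. LOC4350122 read 5.93 and 6.01 against 3.99 to 4.58 elsewhere, and LOC4350125 read 6.76 and 6.62 against 3.39 to 4.49, beside the 2 genes of the stretch given above. The differences from the Nipponbare control along the stretch were 1.68, 3.21, 4.82 and 5.04. In the unstable transgenic line the same probe sets differed from that control by -0.06, -0.05, -0.01 and 0.29. A second probe set of LOC4350129 differed by 0.04 in the unstable mutant, so the stretch holds 1 probe set with a difference near 0. The nearest measured genes on either side, LOC4350121 and LOC4350137, differed by 0.33 and 0.08.

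Elsewhere on chromosome 11, LOC4350665 and LOC4350667 are neighbours. LOC4350665 was a high transcript everywhere and higher still in the unstable mutant, at 12.19 and 11.98 against 10.19 to 10.62. LOC4350667 was dim elsewhere, as given above. The next gene, LOC4350668, averaged 7.90 in the unstable mutant and 5.0 in the Nipponbare control but missed the rule. On the other side, LOC4350662 differed by -1.76.

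On chromosome 1, LOC4326922 and SWEET2B are adjacent and both higher, and BBD1, lower, lies 9 places beyond SWEET2B. LOC4326922 has 2 further probe sets, which were higher than the Nipponbare control by 1.30 and 1.08 and lay above all 12 other arrays, so all 3 probe sets of the gene had the same direction. Of the 9 probe sets in the stretch that the rule did not take, 4 differed from the control by at least 1. They were the 2 further ones of LOC4326922, the second of SWEET2B (1.77) and that of LOC4326930 (-1.30). Only LOC4326930 among these is a gene that the rule did not set apart. Of 18 probe sets within 10 places on either side, 1 differed by at least 1.

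The stretch on chromosome 12 was mixed in direction. LOC4352856, LOC4352866 and LOC4352871 were higher and LOC4352868, between the last pair, lower, within 19 places that hold 10 measured genes. LOC4352871 was among the brightest of the 66, at 13.16 and 13.07 against 10.01 to 10.79, 8.22-fold above the Nipponbare control. LOC4352856 was among the dimmest, at 5.65 and 5.67 against 2.96 to 3.75. Both probe sets of LOC4352866 met the rule, with differences of 4.07 and 2.7. Of the 11 probe sets in the stretch that the rule did not take, 1 differed from the control by at least 1, that of LOC4352860 (1.41). Of 11 within 10 places on either side, 3 did: ADF11 (-2.34), LOC4352852 (-2.1) and LOC4352878 (1.18). In the unstable transgenic line the 5 probe sets of the stretch that met the rule differed from the shared control by between -0.24 and 0.24. The remaining stretches, LOC4326913 with GER4 on chromosome 1 and LOC4343986 with LOC4344002 on chromosome 7, each paired a higher with a lower gene.

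A gene's several probe sets were a check the rule did not impose, though not always an independent one. Of the 57 genes, 21 had more than 1 probe set, and in 4 genes (LOC4352866, LOC9272159, LOC4333719 and LOC4326913) 2 probe sets met the rule. In the other 17 genes, 26 probe sets did not meet it. Of these, 22 differed from the Nipponbare control in the direction of the gene's chosen probe set, 11 of them by at least 1 log2 unit, and 16 lay beyond all 12 other arrays. In 10 the difference was under 0.5. The probe sets of a gene therefore often, but not always, gave the same picture. LOC4338024 differed by 3.96 and 2.48, LOC4333528 by 2.76 and 3.30, and LOC4349759 by 1.92 and -0.36. Of the 66 higher probe sets, 12 shared an array cluster, counted by the leading number of the name, with another of them. So did 4 of the 35 lower ones. Probe sets that differ only in their suffix share their target, as both of LOC9272159 and both of LOC4326913 do. In these genes the agreement is no independent check. Probe sets whose names also differ after the leading number, as in LOC4333719, need not share it.

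A different group of the higher probe sets was already high in Nipponbare. In 8 of the 66 (12.1%), none of them with a gene in the table, all 4 other Nipponbare arrays lay at least 1 log2 above all 8 Bengal and Estrela A arrays, a pattern found in 0.851% of all probe sets tested. Among the 8, Os.46334.1.S1_at and Os.46334.1.S1_x_at share their target. The rule took its reference from these same arrays, and the background includes probe sets dim in every group. These shares are therefore descriptions with no test. OsAffx.7337.1.S1_at read 7.85 and 7.80 in the unstable mutant, 6.70 and 6.45 in the Nipponbare control and 6.2 and 6.24 in the unstable transgenic line. Its group means in Bengal, Estrela A and their lines were 3.22 to 3.42. Os.46334.1.S1_at read 8.71 and 8.82, then 6.64 and 7.53 in the control and 7.05 and 6.61 in the unstable transgenic line, with means of 3.40 to 3.52 in the others. In such probe sets the unstable mutant was the far end of a scale on which the cultivars already differed, whereas for LOC4326922 or LOC4350133 all 3 cultivars were alike.

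The contrasts that leave out the unstable mutant's arrays ask whether these transcripts also respond in the other lines. Between the unstable transgenic line and the Nipponbare control, limma called 14 of the 101 (13.9%), against 7.74% of all probe sets. By direction, 4 were called higher (background 4.64%) and 10 lower (background 3.1%). With the dim filter, which kept 31382 probe sets, 17 of the 101 (16.8%) were called, against 15.5% of those kept. The filter kept 64 of the 66 higher and all 35 lower probe sets, so 16.8% counts some it left out. In 21 of the higher ones, all 12 other arrays lay below the median of all values and the unstable mutant's mean above it. Those 21 passed the filter through the unstable mutant's level, on which the rule had chosen them. The part of dim probe sets in the excess over all probe sets was therefore not tested. The rule took its reference from the highest or lowest of these same arrays, so these shares are not independent of how the probe sets were chosen. The 101 had a median difference of -0.04, the same as all probe sets, and 38 (37.6%) had an unadjusted p under 0.05, against 23.5% of all. Of the 66 higher probe sets, 3 were called higher and 5 lower in the unstable transgenic line. Of the 35 lower ones, 1 was called higher and 5 lower.

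Few of these 14 calls outlasted the loss of an array. BBD1 was lower in the unstable transgenic line (-0.96 ± 0.14 SE, adjusted p = 0.00263 by limma), as were OsAffx.12927.1.S1_s_at (-0.85, adjusted p = 0.00415) and OsAffx.13994.1.S1_at (-2.12, adjusted p = 0.00441). These 3 kept an adjusted p under 0.05 with each of the 4 arrays left out in turn, and 11 lost it at least once. Without replicate 1 of the unstable transgenic line, BBD1 differed by -0.77, OsAffx.12927.1.S1_s_at by -0.6 and OsAffx.13994.1.S1_at by -1.58. Fewer of all probe sets were called as well without replicate 1 of that line or of the Nipponbare control. The loss of calls in those fits is therefore not particular to the 14.

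OsAffx.13994.1.S1_at, with no gene in the table, varied most between groups. It read 11.45 and 11.20 in the unstable mutant, 8.69 and 9.14 in the Nipponbare control and 6.26 and 7.34 in the unstable transgenic line. Its mean was 4.52 in the Bengal control, 4.26 in the stable transgenic line, 8.08 in the Estrela A control and 8.75 in the stable mutant. The modified Nipponbare lines thus lay on opposite sides of their common control. LOC4338024 showed the same direction in both, with 8.23 and 7.29 in the unstable mutant, 5.65 and 4.89 in the unstable transgenic line and 3.86 and 3.75 in the control (1.46 for the unstable transgenic line, adjusted p = 0.00753 by limma, 0.0736 without its replicate 1). In the other cultivars and their lines its group means were 3.22 to 3.26.

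In the stable lines limma called none of the 101. Between the stable mutant and the Estrela A control, 0 were called against 0.131% of all probe sets, 10 (9.9%) had an unadjusted p under 0.05 against 6.64% of all, and the differences ran from -0.95 to 0.68 with a median of 0. Between the stable transgenic line and the Bengal control, 0 were called against 0.164%, 13 (12.9%) had an unadjusted p under 0.05 against 7.25% of all, and the differences ran from -0.92 to 2.02 with a median of -0.04. At these backgrounds fewer than 1 call would fall on 101 probe sets, so the counts of 0 do not set them apart from other probe sets. The difference between the unstable transgenic and stable mutant effects was called for 5 of the 101 (4.95%), against 4% of all probe sets.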

How the data were processed

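Levels came from the Affymetrix GeneChip Rice Genome Array, 14 arrays in 7 groups of 2. The authors deposited log2 values, computed with Partek by the RMA method (background correction, quantile normalization over all arrays, log2, median polish), per the labels' design text and the submitters' processing notes. The Partek version is not given in the sources used here. Values carry 2 decimals and were used as deposited, after 187 of 57381 probe sets (controls) were left out. Quantile normalization gives all arrays one distribution, so a shift of most transcripts together would not be seen. Detection calls were not analysed here, so signal over background was not tested.

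limma 3.58.1 in R 4.3.3 fitted 1 mean per group over all 14 arrays (7 residual degrees of freedom, prior 4.57, eBayes with default settings). Calls are two-sided at a Benjamini-Hochberg adjusted p under 0.05 over 57194 probe sets. The step was tested on simulated data. P-values measure the spread between seedling pools, and the number of arrays limits the precision. Replicate 1 is the array with a number in its title and replicate 2 the one without. Of 21 pairs of groups, 2 had deviations of same-numbered arrays correlated above 0.1, and r ran from -0.208 to 0.115. The numbers were not treated as pairs, and whether arrays of different numbers shared a batch was not tested.

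Genes, names and order come from RefSeq (ASM3414082v1) through the transcript identifiers of the array annotation. The genome build of the array is not given in the sources used here, so no coordinates are printed. Of the tested probe sets 22436 matched 1 gene, 95 several and 34663 none. A gene in a list is represented by its probe set with the highest mean. Named were the genes with an informative symbol, the 5 largest gaps per direction, list members, runs of one direction within 5 gene places, the probe sets next to the threshold and genes with a second probe set. Others were chosen after their values were seen, as were the clock list, the 2 families and the stretches of 20 places. The rule, the members and the lists were chosen with earlier results of these data known. Alternatives changed the gap, the reference arrays, the normalization, the filters, the variance moderation and the arrays used.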

Additional observations from a re-analysis of the deposited data

Results flagged for a closer look

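In 5 of the 101 probe sets (4.95%, against 4% of all probe sets) limma called a difference between the effect of the unstable transgenic line and that of the stable mutant, each against its own control. For OsAffx.13994.1.S1_at it was -2.79 log2 units (SE 0.49, adjusted p = 0.0129), from -2.12 for the unstable transgenic effect and 0.68 for the stable mutant effect. For BBD1 it was -1.02 (SE 0.20, adjusted p = 0.0204), from -0.96 and 0.06. For OsAffx.12927.1.S1_s_at it was -0.88 (SE 0.20, adjusted p = 0.0322), from -0.85 and 0.03. For LOC4351929 it was -0.58 (SE 0.14, adjusted p = 0.0427), from -0.40 and 0.17. For OsAffx.7332.1.S1_at it was 1.25 (SE 0.23, adjusted p = 0.0141), from 0.30 and -0.95, neither of which was called by itself. The lines differ in cultivar, modification and hygromycin, which cannot be told apart here.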

How the results depend on the processing

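The number of probe sets set apart follows the gap by construction. A gap of 1.5 gave 29 higher and 13 lower, a gap of 0.5 gave 264 and 157, and with only the 4 other Nipponbare arrays as reference there were 651 and 661. Leaving out each array in turn gave 66 to 116 higher and 35 to 60 lower. With an array fewer the rule can only take more probe sets, so the lower ends are fixed by construction and show no stability. The extremes came without unstable mutant replicate 2 (116 and 55) and without replicate 1 (88 and 60). Cyclic loess gave 66 and 35 (65 and 31 shared), median centring 63 and 34, the dim filter 64 and 35, and leaving out probe sets shared between transcripts 48 and 28. Leaving out OsAffx probe sets, added after the data were seen, gave 55 and 28. Of the 14 calls in the unstable transgenic line, 3 remained at 2-fold or more, and 0 with the 4 arrays of the comparison alone, a fit with fewer residual degrees of freedom. Leaving out 1 array gave 3 to 16, on the assumption that a lone array varies as the other groups do. Trend and robust moderation gave 1 call in the stable mutant and 2 in the stable transgenic line, and the 4 arrays of the comparison alone gave 1 in the latter. With the replicate number as a block the counts were 16, 0 and 0. For the 14 called probe sets, 103 refits kept the call, 37 lost it and 0 reversed. No batch is given in the labels.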
